A study of Mus musculus with 6 samples.

Results

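The Cd300 receptors are a family of myeloid surface proteins with a single immunoglobulin-like domain, and their levels were compared between mouse neutrophil progenitors with wild-type C/EBPα (WT) and those with its K313 form (K313). Members were taken by gene symbol in the platform annotation. Of the 8 genes listed (Cd300a, Cd300c, Cd300c2, Cd300e, Cd300lb, Cd300ld, Cd300lf and Cd300lg), 7 were found, with 1 probe set each among 22206. Cd300c was not matched and was not analysed here. In the order of the RefSeq gene table, all listed genes but Cd300lg lie in 1 cluster on chromosome 11, and Cd300lg lies elsewhere on that chromosome.

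The cells were HoxB8 neutrophil progenitors, a mouse model in which the transcription factor Hoxb8 holds myeloid progenitors immature, and both groups were taken after 1 day in differentiation medium with stem cell factor. Total RNA was hybridised to Affymetrix Mouse Clariom S arrays, 3 arrays per group. C/EBPα is the transcription factor that starts granulocyte formation, and the K313 form is associated with acute myeloid leukaemia. The labels leave out whether replicates were separate cultures, whether each group came from 1 clone and whether a native Cebpa allele was active, so the p-values here rest on a spread between arrays that may be technical only. Fewer cells of a type and less RNA per cell cannot be told apart in such bulk samples.

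Receptors of this family come in an inhibitory and an activating form. Inhibitory members (Cd300a, Cd300lf) carry tyrosine motifs in a long cytoplasmic tail, which recruit phosphatases such as SHP-1 when the receptor is engaged. Activating members have a short tail and signal through adaptor proteins, chiefly DAP12 (Tyrobp) and the Fc receptor gamma chain (Fcer1g). Several members bind lipids such as phosphatidylserine or ceramide, and they are known from neutrophils, monocytes, dendritic cells and mast cells.

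Several values of the whole series bear on the results. All 10 neutrophil progenitor markers were measured, and the mean over them was 14.20 to 14.29 (log2) on the WT arrays and 14.68 to 14.87 on the K313 arrays. Of the 7 measured markers of mature neutrophils, 4 were at means of at most 5 in both groups, while Cxcr2 was at 10.43 in WT and 8.36 in K313. Cebpa itself differed by -0.51 ± 0.21 (SE; limma adjusted p = 0.212). Hoxb8 was 24.9-fold lower in K313, and the cause of that lower level was not tested. The Y-linked gene Eif2s3y was at 12.09 to 12.37 on the K313 arrays against 3.11, 2.93 and 7.03 in WT. By that Y-linked gene, the groups differed in more than the C/EBPα form. WT replicate 3, the array with that middle value, correlated with K313 arrays at 0.987 to 0.989 over all probe sets, against 0.983 to 0.986 for the other WT arrays.

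Of the 7 measured Cd300 genes, 4 fell in K313 and 0 rose. The 4 were Cd300ld, Cd300lb, Cd300c2 and Cd300a, which lie next to each other in the cluster as far as measured, at 1.74-fold to 3.15-fold lower levels (limma, Benjamini-Hochberg adjusted p under 0.05). Over all probe sets, 3.97% were called lower and 3.77% higher, and among the 11248 probe sets with a mean over 5, 7.17% were called lower and 6.17% higher. At an unadjusted p under 0.05, 5 members were lower and 0 higher, beside 9.04% lower and 8.79% higher over all probe sets and 14.8% lower among those with a mean over 5. The 3 WT and 3 K313 values did not overlap in the same 4 genes, against 10.9% of all probe sets, and 16.5% of those with a mean over 5, with K313 wholly lower. The median difference over the 7 members was -0.80 (log2), beside 0.02 over all probe sets and -0.01 over those with a mean over 5. Cd300lf was lower by an amount that missed the threshold, and Cd300e and Cd300lg were at means of at most 5 in both groups.

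**Figure D1:**
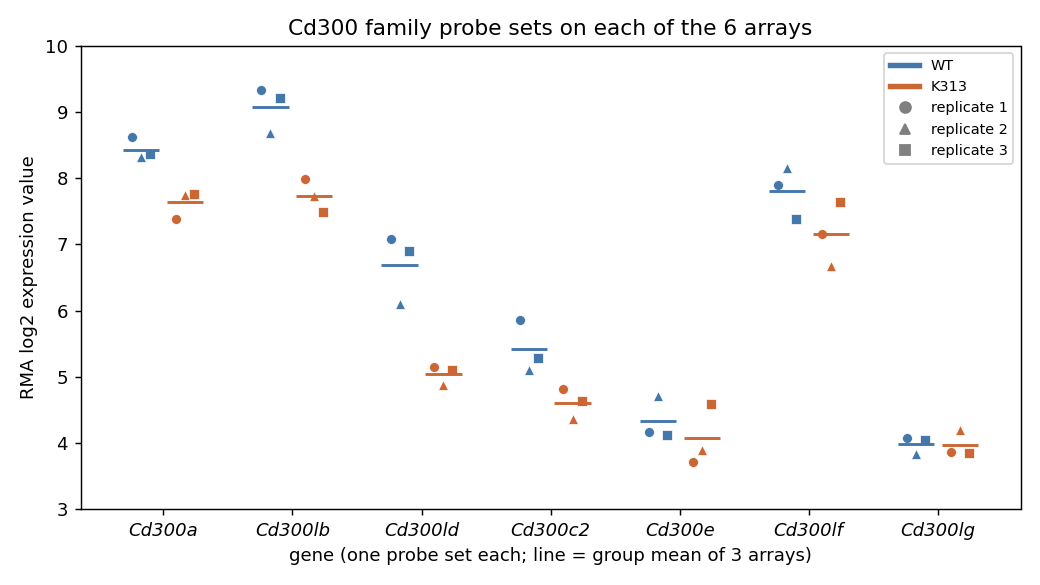
RMA log2 expression values of the 7 Cd300 probe sets (vertical axis) on each of the 6 arrays, WT in blue and K313 in orange, with a line at each group mean and a symbol for each replicate number. In Cd300a, Cd300lb, Cd300ld and Cd300c2 all K313 points lie under all WT points, while the groups overlap in Cd300e, Cd300lf and Cd300lg.

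The 250 bases before the annotated start of the 4 genes that fell are shown because these genes are neighbours that moved together. They are from RefSeq, assembly GRCm38.p6, each 5′ to 3′ on its gene's strand, with capitals for letters that match a searched motif.
Cd300a, chr11:114889791-114890040, plus strand: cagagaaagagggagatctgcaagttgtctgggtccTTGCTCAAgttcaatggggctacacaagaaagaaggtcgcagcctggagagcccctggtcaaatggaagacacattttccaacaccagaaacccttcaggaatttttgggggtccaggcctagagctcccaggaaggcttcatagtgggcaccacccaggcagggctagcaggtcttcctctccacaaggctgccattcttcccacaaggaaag
Cd300lb, chr11:114934372-114934621, minus strand: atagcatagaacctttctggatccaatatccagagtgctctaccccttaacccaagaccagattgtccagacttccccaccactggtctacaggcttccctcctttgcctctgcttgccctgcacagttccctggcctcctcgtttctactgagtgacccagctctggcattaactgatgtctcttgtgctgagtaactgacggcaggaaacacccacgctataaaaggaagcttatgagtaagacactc
Cd300ld, chr11:114989887-114990136, minus strand: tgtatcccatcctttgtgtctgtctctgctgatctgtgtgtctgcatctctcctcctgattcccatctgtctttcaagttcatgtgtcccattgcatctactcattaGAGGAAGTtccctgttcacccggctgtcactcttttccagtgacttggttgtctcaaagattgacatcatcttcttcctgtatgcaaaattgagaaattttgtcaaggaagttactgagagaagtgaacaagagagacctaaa
Cd300c2, chr11:115001881-115002130, minus strand: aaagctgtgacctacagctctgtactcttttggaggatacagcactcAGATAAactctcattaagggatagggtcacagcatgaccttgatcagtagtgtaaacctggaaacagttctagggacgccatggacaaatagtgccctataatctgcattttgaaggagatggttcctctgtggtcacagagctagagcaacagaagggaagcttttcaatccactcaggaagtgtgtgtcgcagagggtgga

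Windows of 300 bases, which add the 50 bases after the start, were found for 7 of the 8 listed genes, Cd300c included and Cd300lg not. They were searched on both strands for the C/EBP letters TTGCNNAA, the PU.1 letters GAGGAAGT and the GATA letters AGATAA. The C/EBP letters were in 1 of the 7 windows, that of Cd300a, and in 10.8% of all 32851 promoter windows. The PU.1 letters were in 2 windows, those of Cd300ld and Cd300lf, and in 3.2% of all windows. The match of Cd300lf begins at the start itself and that of Cd300ld lies 143 bases before it. The GATA letters were in 2 windows, those of Cd300c2 and Cd300e, and in 11.2% of all windows. Cd300lb and Cd300c had none of the 3, and no window held more than 1 match, so none overlapped. These matches describe letters in a fixed window and are no evidence of binding. The 4 genes that fell had no searched letters in common.

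Among the inhibitory receptors, Cd300a (CLM-8), which binds phosphatidylserine on dying cells, had log2 values of 8.62, 8.32 and 8.36 on the WT arrays and 7.39, 7.75 and 7.77 on the K313 arrays. All K313 values were below all WT values, with a gap of 0.55 between the nearest 2. Its mean went from 8.43 ± 0.16 (SD, n = 3) to 7.64 ± 0.21, a difference of -0.80 ± 0.17 (SE; limma adjusted p = 0.0141). The call was lost without WT replicate 1 (adjusted p = 0.0567) and without K313 replicate 1 (0.0624), while the difference stayed between -0.86 and -0.67 over the 6 fits that leave out 1 array. Its adjusted p ranged from 0.0071 to 0.123 over the 14 alternatives.

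Cd300lf (CLM-1), the inhibitory receptor that also serves as the entry receptor of murine norovirus, read 7.90, 8.15 and 7.39 in WT and 7.16, 6.68 and 7.64 in K313. The groups overlapped: K313 replicate 3 lay above WT replicate 3. The difference was -0.65 ± 0.26 (SE; limma adjusted p = 0.204), with a 95% interval of -1.23 to -0.08 before adjustment. It missed the threshold in all 14 alternatives, with adjusted p from 0.0871 to 0.528. Both the WT spread (SD 0.39) and the K313 spread (SD 0.48) were wider than those of Cd300a.

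Of the activating receptors, Cd300lb (CLM-7), which pairs with DAP12, had WT values of 9.33, 8.69 and 9.22 and K313 values of 7.99, 7.73 and 7.49. The groups were apart, the highest K313 value lying 0.70 below the lowest WT value. It was 2.54-fold lower in K313, a difference of -1.34 ± 0.21 (SE; limma adjusted p = 0.00159), from 9.08 ± 0.34 (SD, n = 3) to 7.74 ± 0.25. All 6 fits that leave out 1 array kept the call, with differences of -1.54 to -1.22, and without WT replicate 3 it was -1.27.

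Cd300ld (CLM-5), an activating receptor that couples to the Fc receptor gamma chain, read 7.09, 6.10 and 6.90 in WT and 5.15, 4.88 and 5.10 in K313. The K313 arrays were close together (SD 0.14) and all below WT, in which replicate 2 was lowest. The level was 3.15-fold lower in K313, a difference of -1.65 ± 0.24 (SE; limma adjusted p = 0.00101). The K313 mean of 5.04 is near the array medians of 5.01 to 5.13, where folds are compressed, so the size is a compressed estimate. The call held without each array in turn, with differences of -1.95 to -1.46.

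Near-relatives of Cd300ld lie in the same cluster. Cd300ld2, Cd300ld3, Cd300ld4 and Cd300ld5 had no probe set under their own symbols and were not analysed here. The promoter windows of Cd300ld4 and Cd300ld5 were identical over 300 bases, and both were 66.1% identical to that of Cd300ld in a global alignment. The windows of the other listed genes were 48.0% (Cd300a) to 54.3% (Cd300lb) identical to that of Cd300ld. Promoter windows do not tell which transcripts a probe set detects. Whether the Cd300ld probe set also detects transcripts of these relatives was not tested, so its level and difference are uncertain in that respect.

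Cd300c2 (CLM-4, also known as MAIR-II), an activating receptor of monocytes and macrophages, read 5.86, 5.10 and 5.29 in WT and 4.81, 4.37 and 4.63 in K313. All K313 values were below all WT values, and the K313 mean of 4.60 is below the array medians of 5.01 to 5.13. The difference was -0.81 ± 0.21 (SE; limma adjusted p = 0.0417), the call nearest the threshold. Of the 6 fits that leave out 1 array, only the one that omitted WT replicate 2 kept the call of Cd300c2. The adjusted p rose to 0.124 on omitting WT replicate 1 and 0.0756 on omitting WT replicate 3, and to 0.0572, 0.172 and 0.115 on omitting K313 replicates 1, 2 and 3. Over all 14 alternatives its adjusted p ranged from 0.0208 to 0.284 and its difference from -0.97 to -0.59.

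Cd300e (CLM-2), an activating receptor of monocytes, read 4.16, 4.71 and 4.12 in WT and 3.72, 3.90 and 4.59 in K313. The groups overlapped, and the difference was -0.26 ± 0.24 (SE; limma adjusted p = 0.679; 95% interval before adjustment -0.80 to 0.28). Cd300lg (CLM-9, nepmucin), known from endothelium, where it takes part in lymphocyte binding, read 4.07, 3.83 and 4.05 in WT and 3.86, 4.19 and 3.85 in K313. Its difference was -0.02 ± 0.17 (SE; adjusted p = 0.977; 95% interval before adjustment -0.38 to 0.35). Neither level can be told from background here, since no detection calls were used. Of 6 endothelial markers, 5 were also at means of at most 5 in both groups, and Pecam1, which leukocytes also express, was the 1 that rose.

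The count of 4 lower members was reached again without WT replicate 2, and it was 3 without WT replicate 3, without K313 replicate 2 or without K313 replicate 3. It was 2 without WT replicate 1 and 2 without K313 replicate 1, Cd300lb and Cd300ld remaining in both. Lower calls over all probe sets also dropped, from 882 to 705 and 717 in these 2 fits. They numbered 575 to 776 over the 6 fits that leave out 1 array. With ordinary variance per probe set, an alternative chosen after seeing the data, limma's linear model called 0 members in either direction (4 lower and 0 higher at an unadjusted p under 0.05). That fit called 249 lower and 247 higher over all probe sets, and its share at an unadjusted p was not counted.

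**Figure D2:**
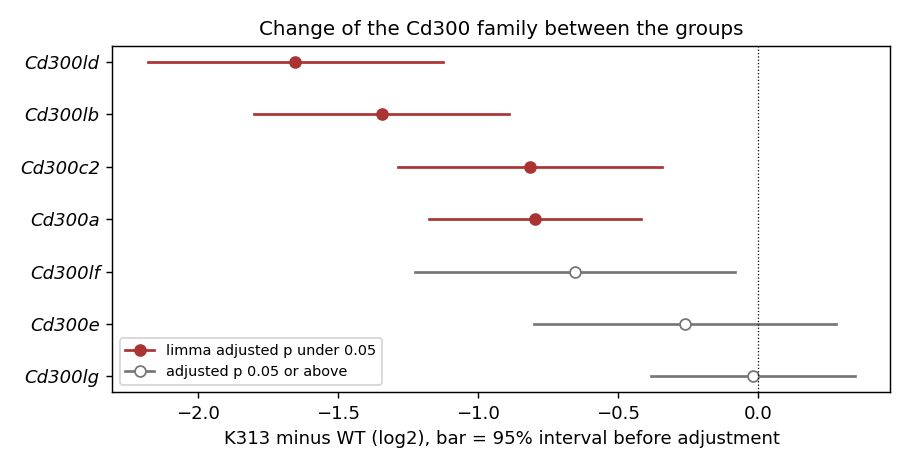
Difference of each Cd300 probe set, K313 minus WT on the log2 scale (horizontal axis), with its 95% interval before adjustment; filled red points have a limma adjusted p under 0.05. The 4 called genes lie between -1.65 and -0.80, and the intervals of Cd300e and Cd300lg include 0.

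**Figure D3:**
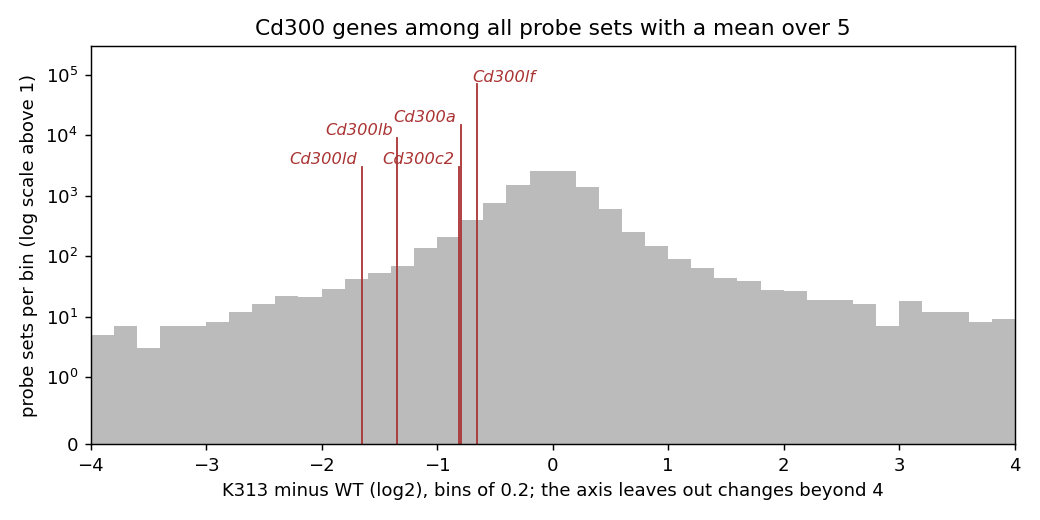
Number of probe sets per bin of 0.2 in K313 minus WT (log2), over the 11248 probe sets with a mean over 5, on an axis that is logarithmic above 1 and leaves out changes beyond 4; red lines mark the 5 Cd300 genes with such a mean. Cd300ld and Cd300lb lie in the lower tail, and Cd300c2, Cd300a and Cd300lf nearer its shoulder.

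Within the WT group the members did not follow 1 order of arrays. WT replicate 2 was the lowest WT array for Cd300a, Cd300lb, Cd300ld, Cd300c2 and the uncalled Cd300lg, and the highest for Cd300lf and Cd300e. To describe likeness, each gene's 6 values were centred on their own mean and compared by root mean square distance over the 6 arrays. Cd300lb and Cd300ld were the closest pair of members, at 0.24, and Cd300e and Cd300ld the farthest, at 0.89. This distance takes in both the size of the group difference and the pattern within groups, and it carries no test. Cd300a and Cd300c2, with near-equal differences of -0.80 and -0.81, were the next closest pair, at 0.27.

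Other genes with the most similar profiles were found in the same way. For Cd300ld they were the carnitine and ergothioneine transporter Slc22a4 (distance 0.14), the ubiquitin-editing enzyme Tnfaip3 (0.16) and Septin8 (0.17). Slc22a4 read 7.90, 7.30 and 7.83 in WT and 6.33, 6.02 and 6.16 in K313. WT replicate 2 was its lowest WT array, as for Cd300ld, which choosing it by likeness over the same 6 values favours. For Cd300lb they were Micall2 (0.10), the ubiquitin ligase Rnf144a (0.11) and Ssbp3 (0.13). Cd300a was nearest to the membrane-shaping protein Bin1, the acyltransferase Mboat7 and Gpatch2l, each at 0.08. Cd300c2 was nearest to the fatty acid elongase Elovl6 (0.08), Bin2 (0.09) and the elongation factor Ell (0.09).

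The proteins through which these receptors signal were followed as a list with 20 measured genes. In K313, 5 fell and 0 rose, and 15 did not pass (9 lower and 1 higher at an unadjusted p under 0.05 in limma). Over the 11248 probe sets with a mean over 5, 7.17% were called lower and 6.17% higher. At that unadjusted p, 14.8% of them were lower and 1398 were higher. The median difference of the list was -0.32, beside 0.02 over all probe sets and -0.01 over those with a mean over 5.

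Of the adaptors, Tyrobp, which encodes DAP12, fell. It read 12.48, 12.38 and 12.46 in WT and 10.97, 10.82 and 11.21 in K313, with no overlap. The level was 2.71-fold lower, a difference of -1.44 ± 0.16 (SE; limma adjusted p = 0.00014). The Fc receptor gamma chain Fcer1g differed by -0.13 ± 0.15 (adjusted p = 0.752) at means of 15.92 and 15.79, with a 95% interval of -0.45 to 0.20 before adjustment. Hcst, which encodes the adaptor DAP10, differed by 0.23 ± 0.21 (adjusted p = 0.660). The scaffold Lat2, which links activated receptors to downstream enzymes, read 9.35, 9.29 and 9.36 in WT and 6.29, 6.88 and 6.52 in K313. Its 6.82-fold lower level (-2.77 ± 0.18; adjusted p = 2.92e-06) was the largest difference of the list. The adaptor Grb2 fell by 0.93 ± 0.17 on the log2 scale (adjusted p = 0.00482).

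Among phosphatases that bind the inhibitory tails, Ptpn6 (SHP-1) read 14.27, 13.83 and 14.34 in WT and 13.47, 13.47 and 13.17 in K313. It differed by -0.78 ± 0.18 (limma adjusted p = 0.0239), with no overlap between the groups. On leaving out 1 array at a time, the Ptpn6 call held only when WT replicate 2 was the array omitted. Its adjusted p was 0.0825 and 0.0957 on omitting WT replicates 1 and 3, and 0.0526, 0.0594 and 0.105 on omitting K313 replicates 1, 2 and 3. Ptpn11 (SHP-2) differed by -0.45 ± 0.18 (adjusted p = 0.205) and the lipid phosphatase Inpp5d (SHIP-1) by -0.26 ± 0.24 (0.673). Of the kinases, the Src family member Fyn fell 4.47-fold, from 9.10 ± 0.46 (SD, n = 3) to 6.94 ± 0.10 (adjusted p = 6.94e-05). Syk, which binds activated DAP12, differed by -0.38 ± 0.16 and did not pass (0.235).

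**Figure D4:**
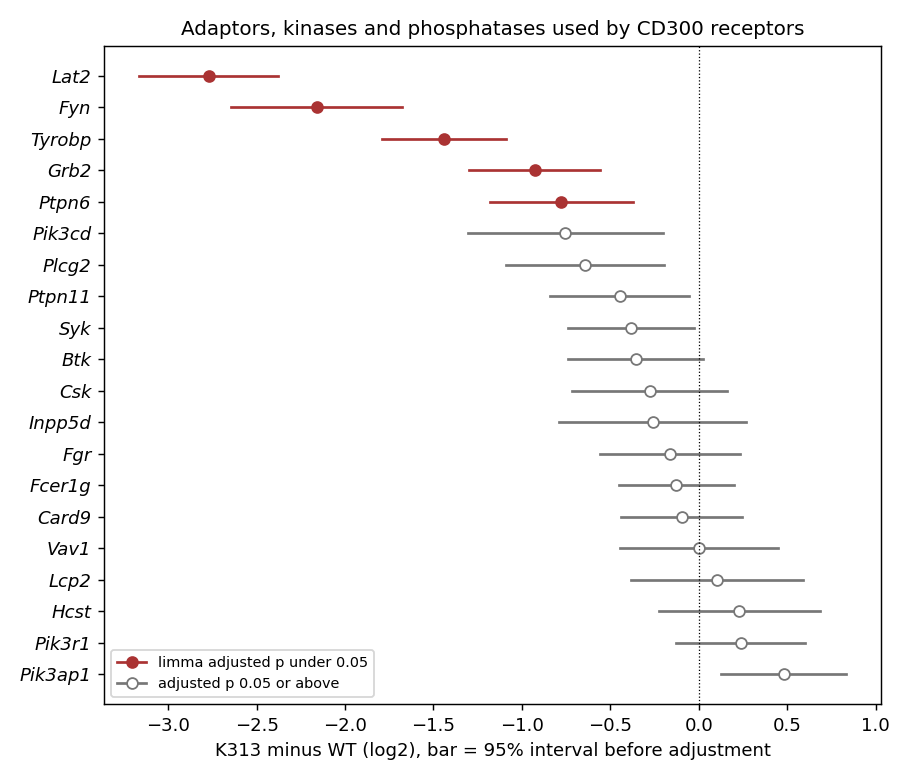
Difference of 20 signalling partners, K313 minus WT on the log2 scale (horizontal axis), with 95% intervals before adjustment; filled red points have a limma adjusted p under 0.05. Lat2, Fyn, Tyrobp, Grb2 and Ptpn6 lie below 0, and no gene on the upper side passed.

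Genes around the cluster were read in RefSeq order, as the 10 nearest measured protein-coding genes on each side. Of these 20, 1 fell and 1 rose, 18 did not pass, and 12 had means of at most 5 in both groups. Over all 22206 probe sets, 3.97% were called lower and 3.77% higher, and 10633 had such means in both groups. Ttyh2, a chloride channel family member, fell by 1.23 ± 0.18 on the log2 scale (limma adjusted p = 0.0011) and Cdc42ep4, a Cdc42 effector, rose by 1.32 ± 0.19 (0.00095). The nearest genes on either side did not pass: Gprc5c differed by 0.21 ± 0.19 (0.657) and Slc9a3r1 by -0.45 ± 0.19 (0.234).

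Rab37, a small GTPase of secretory vesicles, lies inside the cluster, with a span that overlaps Cd300lf in that table; it was picked after its values were seen. It read 11.77, 11.47 and 11.31 in WT and 9.34, 9.09 and 9.14 in K313, a difference of -2.33 ± 0.17 (SE; limma adjusted p = 6.79e-06). Whether the probe sets of Rab37 and Cd300lf share signal was not tested; Cd300lf, unlike Rab37, had overlapping groups.

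**Figure D5:**
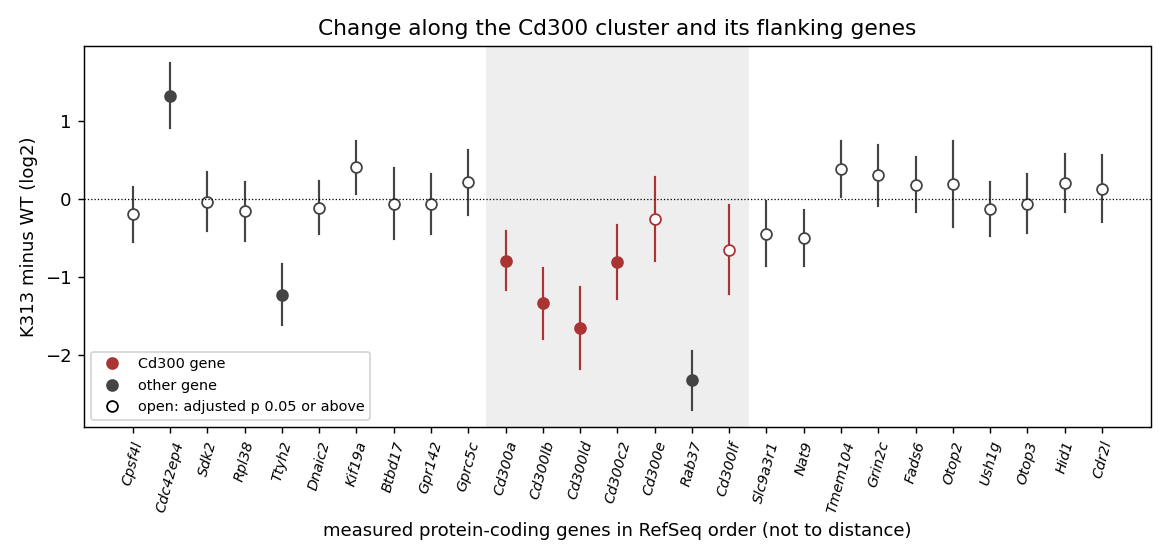
Difference of each measured protein-coding gene, K313 minus WT on the log2 scale (vertical axis), in RefSeq order and not to distance, with 95% intervals before adjustment; red marks Cd300 genes, grey shading the cluster, and open points an adjusted p of 0.05 or above. Within the shading 5 points are called and all lie below 0, and outside it Ttyh2 and Cdc42ep4 are called.

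Markers of other myeloid cells that express Cd300 genes also differed. For the counts below, 3.97% of all probe sets were called lower and 3.77% higher. Among those with a mean over 5, 7.17% were called lower and 6.17% higher. Of 8 mast cell and basophil markers, 4 fell and 1 rose, and the mean over the list was 11.53 to 12.00 (log2) on the WT arrays and 11.24 to 11.56 on the K313 arrays. The mast cell chymase Cma1 changed by -3.29 ± 0.33, the transcription factor Gata2 by -1.47 ± 0.19, and the basophil protease Prss34 by 3.98 ± 0.21 (limma adjusted p between 1.16e-06 and 0.000441). Mcpt8, a basophil protease, went from 14.92 to 13.28 and the histamine-forming enzyme Hdc from 16.74 to 16.00, and both fell. The carboxypeptidase Cpa3 (17.24 and 16.83) and the Fc receptor beta chain Ms4a2 (10.55 and 10.73) were high in both groups and did not pass. Fcer1a, the alpha chain of the same receptor, was near background at 3.63 and 3.64. Falls of this list numbered 3 on omitting WT replicate 1 or 3 or K313 replicate 2 or 3, where the call of Hdc was lost.

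Of 9 measured monocyte and macrophage markers, 3 rose and 2 fell, with list means of 7.26 to 7.38 on the WT arrays and 7.53 to 7.80 on the K313 arrays. The transglutaminase F13a1 changed by 2.95 ± 0.26, the chemokine receptor Cx3cr1 by -2.04 ± 0.21 and Adgre1, the F4/80 antigen, by -0.78 ± 0.19 (adjusted p between 2.72e-05 and 0.0270). The other rises were Ly6c2 (1.77 ± 0.46, limma adjusted p = 0.0376) and Ccr2 (0.87 ± 0.23, 0.0438), both without overlap between the groups. The complement gene C1qa stayed near background at 3.12 and 3.33. The rises of this list numbered 1 without WT replicate 1, WT replicate 3 or K313 replicate 2, and its falls 1 without WT replicate 2, WT replicate 3 or K313 replicate 2, where the call of Adgre1 was lost.

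Of 7 measured mature neutrophil markers, 1 fell, the chemokine receptor Cxcr2 (-2.08 ± 0.15), and 0 rose (1 at an unadjusted p under 0.05 in limma). That 1 was the granule protein Ngp, which went from 3.64 to 5.02 with no overlap (1.39 ± 0.42; adjusted p = 0.0752) and passed without K313 replicate 1 (0.0296; 0.0296 to 0.209 over the omissions of 1 array). Their list mean was 4.48 to 4.83 on the WT arrays and 4.33 to 4.90 on the K313 arrays. Of 6 dendritic cell markers, 1 fell (Itgax, -0.80 ± 0.16, at means of 4.97 and 4.17) and 0 rose (0 at an unadjusted p under 0.05), with list means of 4.52 to 4.65 and 4.38 to 4.40. Of the 10 neutrophil progenitor markers, 4 rose and 1 fell: Elane changed by 3.29 ± 0.28, Ctsg by 1.75 ± 0.16 and the progenitor antigen Cd34 by -0.93 ± 0.15. Rises of that list numbered 3 on omitting WT replicate 1 or 3 or K313 replicate 1 or 3, where the call of Ms4a3 was lost. Its falls numbered 2 without WT replicate 1, where the stem cell factor receptor Kit also passed. The part of any of these cell types or stages in the lower Cd300 levels was not tested.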

How the data were processed

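The values are log2 expression values per probe set as the authors deposited them, made with RMA, which corrects background, normalizes arrays and summarizes probes, and the Transcriptome Analysis Console, per the submitters' processing notes; versions and the build of the array design are not given in the sources used here. As RMA aligns the arrays' distributions, shifts in a cell's total RNA do not show, and low values are compressed. The values run from 2.21 to 18.59. Arrays have no read depth, and 3 per group set the precision, with standard errors of a difference at a median of 0.18. Symbols came from the platform annotation (19572 probe sets with 1 symbol, 0 with several, 2634 with none).

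limma 3.58.1 in R 4.3.3 (lmFit with group as the only term, eBayes) tested all 22206 probe sets, two-sided, with Benjamini-Hochberg adjustment over all of them and a threshold of 0.05. Every adjusted p is from this fit unless an alternative is named. Differences are K313 minus WT. The fit was also tested on simulated data of this design (22206 probe sets, 50 altered per size). Recovery was 8% for log2 shifts of 0.5, 80% for 1, 100% for 2 and 100% for 3, with 12 false among 156 calls. The simulated noise was independent and normal, with variances from this fit, and far fewer probe sets were altered than the 1720 called. These rates therefore need not carry over to the real comparison.

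The members, lists and tests were chosen with earlier results of these data known. Named genes are all members, called or key signalling partners, called or nearest flanking genes, up to 3 markers per list with the smallest p, and the 3 most alike genes per called member; others are marked, or are further marker list members picked after their values were seen. The flanking genes were counted from Cd300a and Cd300lf, since Cd300lg lies apart. The labels do not say whether replicate numbers pair the arrays. Same-numbered deviations over all probe sets correlated at -0.06, 0.03 and -0.06. These values cannot settle it, since a low correlation does not show how the samples were made. Biopython 1.88 aligned promoter windows.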

Additional observations from a re-analysis of the deposited data

How the results depend on the processing

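Over 14 alternatives no difference of a Cd300 gene, signalling partner or flanking gene that was called changed direction. For the 7 Cd300 genes, 87 of 98 alternative values kept their side of the threshold and 11 lost a call. Lower Cd300 genes numbered 2 to 4 when 1 array was left out, lower signalling partners 4 to 6, lower flanking genes 1 and higher ones 1. Marker genes numbered 7 to 9 lower and 6 to 9 higher. Over all probe sets, the fits without 1 array called 575 to 776 lower and 625 to 760 higher, in place of 882 and 838. With ordinary variance per probe set, chosen after seeing the data, lower Cd300 genes numbered 0 in place of 4 and lower partners 2 in place of 5. That setting gave 0 lower and 0 higher flanking genes (2 lower and 3 higher at an unadjusted p under 0.05 in the same fit) and 2 lower and 2 higher marker genes in place of 9 and 9. Over all probe sets it called 496 in place of 1720, 249 lower and 247 higher, and its share at an unadjusted p was not counted. Moving each array to a common median shifted the median of all differences from 0.02 to -0.06, with 1064 lower and 727 higher calls in place of 882 and 838, and gave 2 lower flanking genes, Nat9 being added (-0.58, limma adjusted p = 0.0493). The replicate number as a block gave 4 lower Cd300 genes and 5 lower partners and lost no call among them; its Cd300c2 adjusted p was 0.0208, and it lost Adgre1 (0.0629) and gained Ngp (0.0305) among the markers. Quantile normalization, omission of the lowest 30% of probe sets, array weights, 1-symbol probe sets and a robust prior with intensity trend each kept all 4 Cd300 calls. No detection calls were used, so levels near 5 and below are limited by background.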
